A study of Mus musculus with 8 samples.

Results

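Activin and follistatin transcripts, together with those of the activin receptors, were examined in the back skin epithelium of mouse embryos that lacked the forkhead transcription factor Foxi3 and of wild-type embryos. The 9 genes were found by symbol among the 26165 rows of the deposited gene table: the ligand subunit genes Inhba, Inhbb and Inha, the secreted follistatin family genes Fst, Fstl3 and Fstl1, and the receptor genes Acvr1b, Acvr2a and Acvr2b. Each had 1 row, so none had to be chosen among duplicates, and no filter on low values was applied, so all 9 were tested. The 4 Foxi3 null embryos (Foxi3-/-, a total null) and the 4 wild-type embryos (Foxi3+/+) were aged E15.5, and each embryo gave 1 Affymetrix exon array. All were littermates drawn from 4 litters (C57/Bl6 background). The epithelium was freed from the dermis with dispase, and null embryos were recognised by their missing jaw and then genotyped. No source ties an embryo to its litter, so embryos were treated as independent. The RNA came from whole epithelium, so fewer cells of a type and less RNA per cell cannot be told apart.

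Activins are secreted dimers of the Tgfb superfamily. Activin A is built of subunits encoded by Inhba and activin B of subunits encoded by Inhbb, while a dimer with the subunit encoded by Inha is an inhibin, which opposes activin. Activin binds the type II receptors Acvr2a and Acvr2b, which recruit the type I receptor Acvr1b and lead to phosphorylation of Smad2 and Smad3, and follistatin captures the ligand before it reaches them. Mice without Inhba or without Fst have defects of whiskers and teeth, and activin is known to act upstream of Foxi3 in ectodermal organs. The comparison asks whether the reverse holds at the transcript level, that is, whether ligands, antagonists or receptors differed once Foxi3 was gone.

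None of the 9 transcripts passed the test in Foxi3 null epithelium. Of the members, 0 of 9 had an adjusted p under 0.05 in limma's moderated test over all rows, a level that 3 of 26165 rows (0.0115%) reached, and all 9 had limma adjusted p = 1.00. At an unadjusted p under 0.05 stood 1 of 9 members, Fstl1, beside 3.72% of all rows. In 0 of 9 members did the null embryos lie wholly above or below the wild-type embryos, beside 1.95% of all rows. The median of the members' log2 differences, Foxi3 null minus wild type, was −0.04, beside −0.01 over all rows, and 4 were above 0 and 5 below. The 95% interval of the difference lay within 0.5 on the log2 scale on either side of 0 for 8 of 9 members, the exception being Fstl1. These intervals are not adjusted for the number of genes, and the number of arrays limits their precision. The smallest exact two-sided permutation p that the 70 arrangements of 4 against 4 embryos allow is 0.0286.

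**Figure D1:**
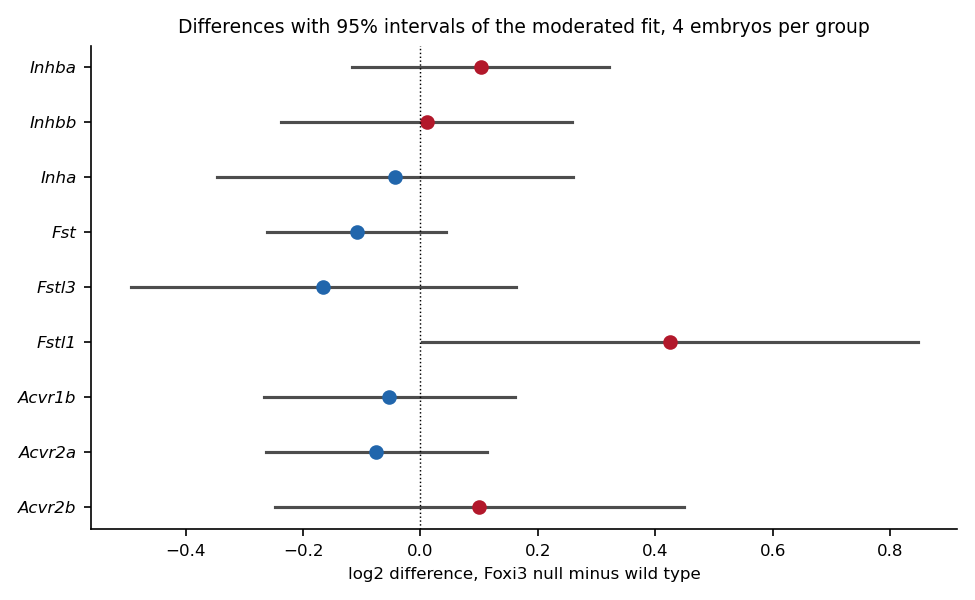
Log2 difference (Foxi3 null minus wild type, x axis) of each of the 9 transcripts, with the 95% interval of limma's moderated fit over 4 embryos per group. Red dots are above 0 and blue dots below. The intervals of 8 transcripts span 0, and that of Fstl1 runs from 0.0021 to 0.85.

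Epithelial markers were high in every sample, and 3 embryos stood apart in markers of other cells or of handling. The 10 epithelial markers, among them the keratin genes Krt5 and Krt14, had sample means between 10.73 and 10.76 in null and between 10.73 and 10.79 in wild-type embryos. The mean of 12 dermal fibroblast markers was 7.87 in null 2, against 5.93 to 6.36 in the other 7 embryos, and 11 of the 12 were highest in null 2. Among them the fibroblast receptor gene Pdgfra was 6.95 in null 2, against 3.75 to 4.27 in the others, while the matrix gene Dcn was bright in every embryo (11.30 to 11.45). The mean of 15 dissociation stress markers, immediate-early genes such as Fos and Jun that handling induces, was 8.13 in null 4 and 9.10 in wild type 4, against 6.90 to 7.26 in the others. The 6 endothelial and 6 leukocyte marker means spanned 3.91 to 4.30 and 4.05 to 4.29. Both means were highest in null 2, where 4 of the 6 endothelial and 1 of the 6 leukocyte markers were highest. Skeletal muscle marker means were 4.93 to 5.02 in null and 5.01 to 5.32 in wild-type embryos. Foxi3 itself, the deleted gene, averaged 8.42 ± 0.18 in null and 8.95 ± 0.28 in wild-type embryos (SD, n = 4 each). Its difference was −0.52 (95% interval −0.85 to −0.19, limma unadjusted p = 0.0061, limma adjusted p = 1.00). In 3 of the 4 null embryos it lay below all wild-type embryos. No source used here says whether its probes lie in the deleted stretch.

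Among the ligand subunits, the activin A gene Inhba (ENSMUSG00000041324, chromosome 13) was dim and nearly level. It read 4.71, 5.09, 4.73 and 4.76 in null embryos 1 to 4, against 4.70, 4.85, 4.65 and 4.67 in wild-type embryos 1 to 4. Null 2 stood alone above the rest, and the other null embryos lay inside the wild-type range. The difference was 0.10 (SE 0.10, 95% interval −0.12 to 0.32, limma adjusted p = 1.00, exact permutation p = 0.429), and without null 2 it was 0.014. Null 2 is the embryo with the high fibroblast markers, and 7 of 8 dermal condensate markers, genes of the mesenchymal cluster beneath the placode, were also highest there. The part of those cells in the Inhba value was not tested. Inhba was the 1 member whose mean lay below the median row of every sample (5.15 to 5.29), where low values cannot be told from background because no detection calls were used.

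The activin B gene Inhbb (ENSMUSG00000037035, chromosome 1) showed no separation. Its log2 intensities were 5.95, 6.04, 5.94 and 6.34 in null embryos 1 to 4, against 5.94, 6.26, 6.08 and 5.96 in wild-type embryos 1 to 4. Null 4 and wild type 2 were the high embryos of their groups and the rest lay close together. The difference of 0.01 (SE 0.11, 95% interval −0.24 to 0.26, limma adjusted p = 1.00) is the smallest of the 9. Inha (ENSMUSG00000032968, chromosome 1), which encodes the subunit that makes an inhibin, gave 6.26, 6.31, 6.41 and 6.44 in null embryos 1 to 4. In wild-type embryos 1 to 4 it gave 6.42, 6.10, 6.29 and 6.78, so that the null values fell inside the wild-type range. Its difference was −0.04 (SE 0.13, 95% interval −0.35 to 0.26, limma adjusted p = 1.00). Null embryos spread less than wild-type embryos in this gene, with SDs of 0.09 and 0.29 (n = 4 each), a contrast that was not tested.

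**Figure D2:**
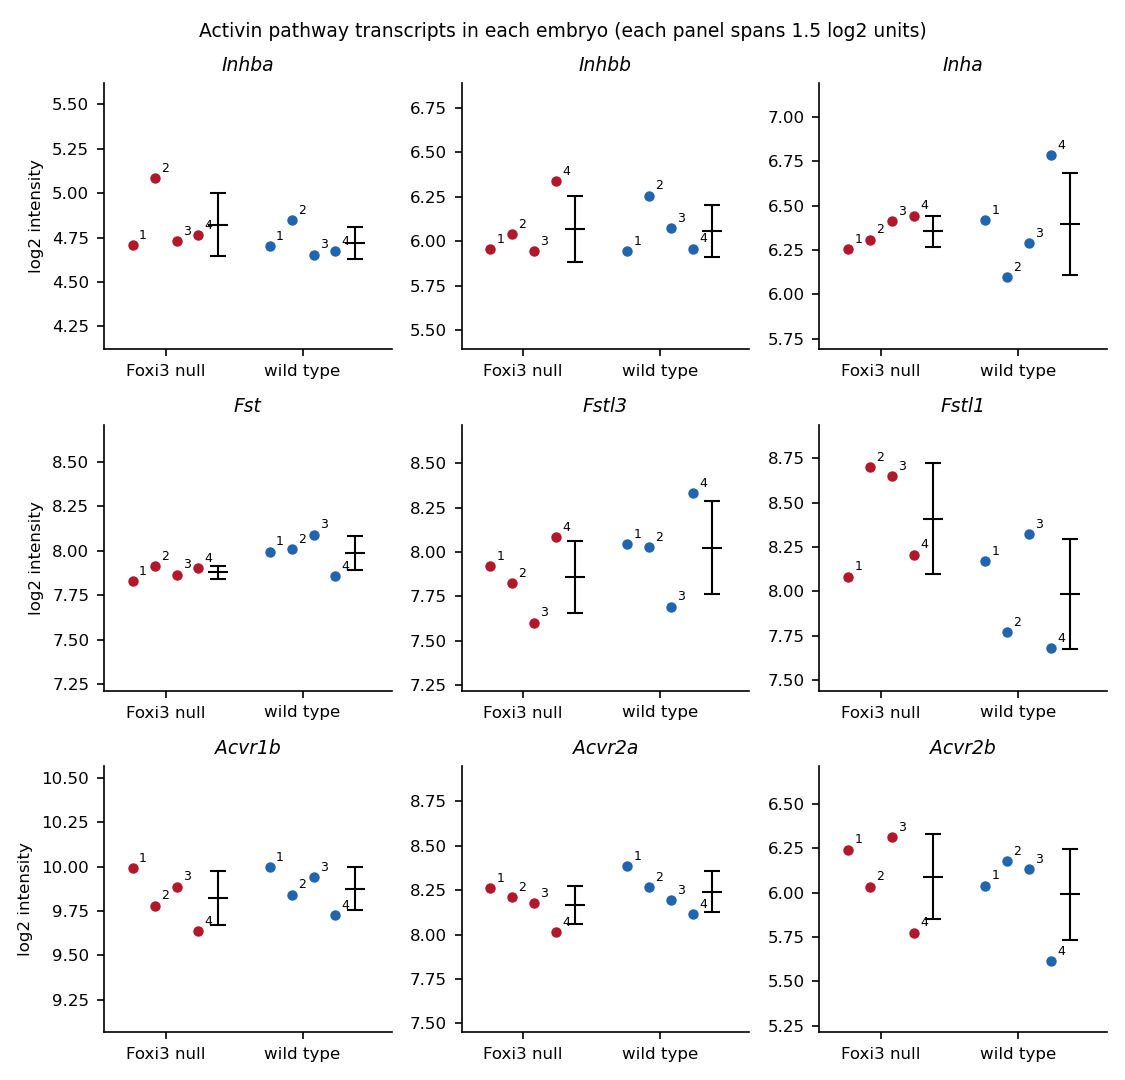
Log2 intensity (y axis) of the 9 transcripts in each Foxi3 null (red, left) and wild-type (blue, right) embryo, numbered as in the labels. Bars beside the points give the mean and SD (n = 4), and every panel spans 1.5 log2 units. The groups overlap in all 9 panels, and null 2 stands alone for Inhba.

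Among the secreted binding proteins, follistatin (Fst, ENSMUSG00000021765, chromosome 13), the main extracellular antagonist of activin, was slightly lower and very even in null epithelium. It measured 7.83, 7.92, 7.87 and 7.90 in null embryos 1 to 4, against 7.995, 8.01, 8.09 and 7.86 in wild-type embryos 1 to 4. All 4 null embryos lay below wild type 1, 2 and 3, and wild type 4 alone fell among them. The means were 7.88 ± 0.04 in null and 7.99 ± 0.10 in wild-type embryos (SD, n = 4 each), a difference of −0.11 (SE 0.07, 95% interval −0.26 to 0.04, limma adjusted p = 1.00, exact permutation p = 0.114). Without wild type 4, one of the embryos with high stress markers, the difference was −0.15, and without both embryos numbered 4 it was −0.16. In both of these fits Fst was the 1 member with an unadjusted p under 0.05, beside 3.11% of all rows without wild type 4 and 6.45% without both embryos numbered 4, and its adjusted p was 0.63 or more in every alternative fit. The array summary gives 1 value per gene and so does not separate the splice forms of follistatin.

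Fstl3 (ENSMUSG00000020325, chromosome 10), a second activin-binding antagonist, was uneven among embryos and overlapped between the genotypes. The log2 intensities were 7.92, 7.83, 7.60 and 8.08 in null embryos 1 to 4, against 8.05, 8.03, 7.69 and 8.33 in wild-type embryos 1 to 4. Number 4 was the highest and number 3 the lowest in both groups. The difference was −0.17 (SE 0.14, 95% interval −0.49 to 0.16, limma adjusted p = 1.00, exact permutation p = 0.371). It was −0.06 without wild type 4 and −0.28 without wild type 3, so that single embryos moved it more than 1.5 times.

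Fstl1 (ENSMUSG00000022816, chromosome 16), a secreted glycoprotein with a follistatin-like domain that is not a close functional counterpart of follistatin, had the largest difference of the 9. It read 8.08, 8.70, 8.65 and 8.21 in null embryos 1 to 4, against 8.17, 7.77, 8.32 and 7.68 in wild-type embryos 1 to 4. Null 2 and null 3 lay above all wild-type embryos, while null 1 lay below wild type 1 and wild type 3. The means were 8.41 ± 0.31 in null and 7.99 ± 0.31 in wild-type embryos (SD, n = 4 each). The difference of 0.42 (SE 0.19, 95% interval 0.0021 to 0.85) corresponds to 1.34-fold, and it did not pass over all rows (limma adjusted p = 1.00, exact permutation p = 0.143). Its limma unadjusted p was 0.0491 with all embryos, and 0.129 without null 2, 0.123 without null 3, 0.123 without wild type 2 and 0.128 without wild type 4. It was 0.0221 without null 1, 0.0433 without null 4, 0.0472 without wild type 1 and 0.0202 without wild type 3. Leaving out any 1 embryo kept the difference between 0.32 and 0.54. The fibroblast marker mean was the highest of the 8 embryos in null 2 (7.87) and the lowest in null 3 (5.93), and without null 2 the Fstl1 difference was 0.33. The part of dermal cells in the Fstl1 values was not tested.

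**Figure D3:**
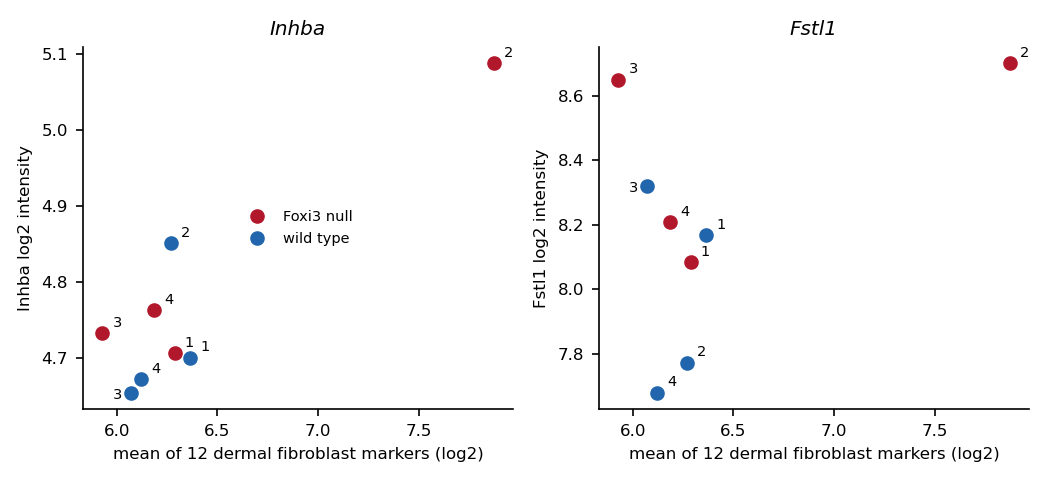
Log2 intensity of Inhba (left) and Fstl1 (right) against the mean log2 intensity of 12 dermal fibroblast markers, 1 point per embryo, Foxi3 null in red and wild type in blue, with the embryo number beside it. Null 2, at a marker mean of 7.87, holds the highest value of both genes, while null 3, at 5.93, has an Fstl1 value of 8.65.

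The receptor genes differed less between the group means than between the highest and the lowest embryo of either genotype. Acvr1b (ENSMUSG00000000532, chromosome 15), the type I receptor that carries the kinase activity towards Smad2 and Smad3, was 9.99, 9.78, 9.89 and 9.63 in null embryos 1 to 4, against 9.998, 9.84, 9.94 and 9.73 in wild-type embryos 1 to 4. The order of the embryos by number, 1, 3, 2 and 4 from high to low, was the same in both groups. Its difference was −0.05 (SE 0.09, 95% interval −0.27 to 0.16, limma adjusted p = 1.00). Acvr2a (ENSMUSG00000052155, chromosome 2), a type II receptor that binds the ligand, was 8.26, 8.21, 8.18 and 8.01 in null embryos 1 to 4, against 8.39, 8.27, 8.19 and 8.11 in wild-type embryos 1 to 4. Again the order by number was shared, here 1, 2, 3 and 4 from high to low, and the groups overlapped. The difference was −0.08 (SE 0.08, 95% interval −0.26 to 0.11, limma adjusted p = 1.00). Acvr2b (ENSMUSG00000061393, chromosome 9), the other type II receptor, was 6.24, 6.03, 6.31 and 5.77 in null embryos 1 to 4, against 6.04, 6.18, 6.13 and 5.61 in wild-type embryos 1 to 4. Null 1 and null 3 lay above all wild-type embryos and null 4 near the bottom. The difference was 0.10 (SE 0.15, 95% interval −0.25 to 0.45, limma adjusted p = 1.00).

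All 3 receptor genes were lowest in the embryo numbered 4 of each genotype, a pattern singled out after the values were seen. For Acvr1b that embryo deviated from its group mean by −0.19 log2 units in null and by −0.15 in wild type. For Acvr2a it was −0.15 in null and −0.13 in wild type. For Acvr2b it was −0.32 in null and −0.38 in wild type. Fstl3 and Inha ran the other way, being highest in number 4 of both groups, with deviations for Fstl3 of 0.23 in null and 0.31 in wild type. Lowest in number 4 of both genotypes were 3 of the 9 members, beside 11.4% of all rows, and highest there were 2 of the 9 members, beside 4044 of 26165 rows. The embryos numbered 4 are those with the high stress markers, of which 14 of 15 were highest in number 4 of both groups, and the part of handling in the receptor values was not tested. Leaving out both embryos numbered 4 gave differences of −0.04 for Acvr1b, −0.07 for Acvr2a and 0.08 for Acvr2b, with limma adjusted p of 0.853 or more.

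**Figure D4:**
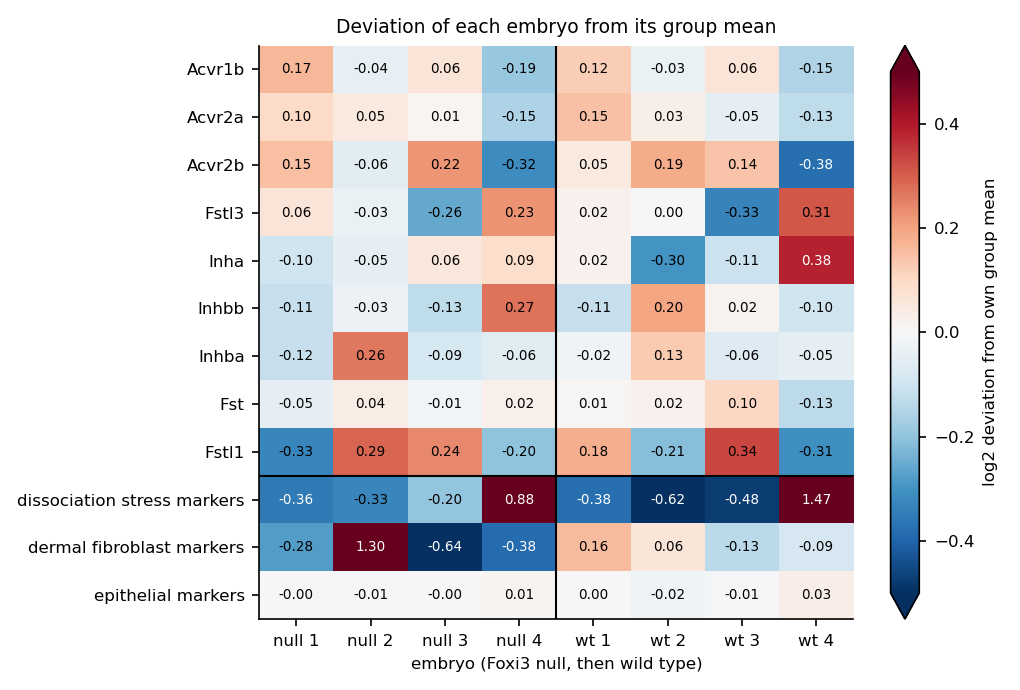
Deviation of each embryo from the mean of its own group, in log2 units (colour and printed value), for the 9 transcripts and for the means of 15 stress, 12 fibroblast and 10 epithelial markers, with Foxi3 null embryos on the left and wild-type (wt) embryos on the right. The receptor rows are lowest in number 4 of both groups, where the stress row is highest (0.88 in null and 1.47 in wild type, beyond the colour scale).

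For the 3 receptor genes the stretch around the start site is shown, and its part in the shared pattern was not tested. Each is 300 bases long, from 250 before to 50 after the start in RefSeq's table for GRCm38.p6. The windows are chr15:101173822-101174121 on the plus strand for Acvr1b, chr2:48813859-48814158 on the plus strand for Acvr2a and chr9:119401928-119402227 on the plus strand for Acvr2b. Capitals mark CAGAC or its reverse complement GTCTG, the short box that Smad proteins bind.
Acvr1b: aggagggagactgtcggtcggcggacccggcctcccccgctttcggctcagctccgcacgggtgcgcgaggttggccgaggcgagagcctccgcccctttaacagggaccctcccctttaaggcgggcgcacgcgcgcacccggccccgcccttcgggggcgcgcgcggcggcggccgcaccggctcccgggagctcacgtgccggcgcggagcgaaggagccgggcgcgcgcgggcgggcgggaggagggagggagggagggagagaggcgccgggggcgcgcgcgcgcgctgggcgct
Acvr2a: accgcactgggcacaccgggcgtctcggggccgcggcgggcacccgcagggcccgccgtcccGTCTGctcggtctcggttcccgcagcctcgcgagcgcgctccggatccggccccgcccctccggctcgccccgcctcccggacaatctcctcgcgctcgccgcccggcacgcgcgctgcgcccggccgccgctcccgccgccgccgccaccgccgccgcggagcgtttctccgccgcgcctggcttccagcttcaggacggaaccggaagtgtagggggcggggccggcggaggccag
Acvr2b: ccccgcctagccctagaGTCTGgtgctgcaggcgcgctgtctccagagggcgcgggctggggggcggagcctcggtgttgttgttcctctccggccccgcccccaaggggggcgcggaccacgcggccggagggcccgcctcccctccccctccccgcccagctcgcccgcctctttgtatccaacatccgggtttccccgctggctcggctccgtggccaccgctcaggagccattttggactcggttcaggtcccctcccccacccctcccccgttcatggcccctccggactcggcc
The type II receptor windows held 1 box each and the Acvr1b window none. Of the 8 members with a window in that table, 4 held the box (Inha, Fstl3, Acvr2a and Acvr2b), beside 49.6% of all 32851 windows of this length. The forkhead core TAAACA or its reverse complement TGTTTA, which can share letters with that box where they adjoin, was in 0 of the 8 windows, beside 13.4% of all windows, and such letters say nothing of whether a factor binds.

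Other genes were taken from 6 lists by role. The last list holds regulators of skin appendages tied to activin or Foxi3 rather than parts of the activin pathway itself. Together the lists had 73 genes, of which 71 were measured. Of these 71 genes, 0 passed over all rows in either direction, 6 had an unadjusted p under 0.05 in limma (4 higher and 2 lower in null), beside 3.72% of all rows, 32 were above 0 and 39 below. Their median log2 difference was −0.01, as over all rows. In 4 genes all null embryos lay above all wild-type embryos, beside 0.871% of all rows, and in 1 gene below, beside 1.07%. Those with an unadjusted p under 0.05 were Gdf11, Pcsk5, Ctgf and Dkk4, higher in null, and Shh and Foxi3, lower. Foxi3 is the deleted gene itself. The lists were chosen with earlier results of these data known, so these counts cannot be weighed against the shares of all rows.

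Of 6 measured ligands of the activin class other than the members, 4 were above 0. The median was 0.05, and −0.06 without both embryos numbered 4. In 2 of the 6, Gdf11 and Mstn, all null embryos lay above all wild-type embryos, beside 0.871% of all rows. Gdf11, a ligand that also signals through Acvr2a and Acvr2b, was dim at 4.91 ± 0.07 in null and 4.76 ± 0.04 in wild-type embryos. Its difference was 0.15 (SE 0.06, limma adjusted p = 1.00). Myostatin (Mstn), the muscle growth inhibitor, was dim at 3.12 ± 0.20 in null and 2.92 ± 0.06 in wild-type embryos, with a difference of 0.21 (SE 0.10, limma adjusted p = 1.00). Its groups barely parted, at 2.9799 in null 2 and 2.9791 in wild type 2, and null 4 was highest at 3.41. Both genes lay below the median row of every sample (5.15 to 5.29), where low values cannot be told from background. All 6 skeletal muscle markers lay below 0, and the part of muscle cells in the Mstn values was not tested. Gdf3 was at −0.11 and Inhbc, a further inhibin beta subunit gene, at 0.08.

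Among 16 extracellular modulators 6 were above 0 and 10 below, with a median of −0.05. The proprotein convertase gene Pcsk5 was at 0.18 (SE 0.08, limma adjusted p = 1.00), and Tgfbr3, the betaglycan that helps inhibin block activin receptors, at 0.11. Tdgf1, the Nodal co-receptor Cripto, was at −0.15. Bambi, a decoy receptor without kinase activity, was at −0.56 but varied widely, with 7.98 ± 0.72 in null and 8.54 ± 0.61 in wild-type embryos (SD, n = 4 each, limma adjusted p = 1.00). Its lowest values were 7.08 in null 3 and 7.72 in wild type 3, the numbers at which Fstl3 was lowest too.

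Of 6 other receptors of the superfamily 5 were above 0, with a median of 0.04 and a range from −0.07 to 0.09. They included the Tgfb receptor genes Tgfbr1 at 0.09 and Tgfbr2 at 0.06, the type I receptor gene Acvrl1 at 0.05 and the Bmp type II receptor gene Bmpr2 at −0.07.

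In the Smad2 and Smad3 branch 5 of 17 genes were above 0 and 12 below, with a median of −0.01 that became 0.01 after median centring. Smad3, the transducer itself, was 9.02 ± 0.22 in null and 8.76 ± 0.25 in wild-type embryos, at 0.26 (SE 0.15, limma adjusted p = 1.00), and Tgif2, a corepressor, was at 0.13. Pmepa1, which limits Smad access to the receptor, and Skil, a Smad corepressor, were both at −0.18 (SE 0.09 each, limma adjusted p = 1.00). Smad7 was at −0.02 and Smurf1 at −0.01. Of these 17 genes 7 were lowest in the embryo numbered 4 of both genotypes, beside 11.4% of all rows: Smad3, Smad4, Smurf1, Ski, Tgif1, Tcf12 and Trim33. Another 3, Smad7, Zfyve9 and Pmepa1, were highest there, beside 4044 of 26165 rows. This pattern was singled out after the receptor values were seen.

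Of 15 transcripts known to respond to activin or Tgfb, 5 were above 0 and 10 below, with a median of −0.08 beside −0.01 over all rows. Ctgf, a matricellular protein gene, stood apart at 0.86 (SE 0.16, limma adjusted p = 0.541), with 9.35, 9.61, 9.71 and 9.31 in null embryos 1 to 4, against 8.70, 8.72, 8.92 and 8.21 in wild-type embryos 1 to 4. Every null embryo lay above every wild-type embryo for this gene, although it did not pass over all rows. The metalloproteinase gene Mmp9 was at 0.18, the cell cycle inhibitor gene Cdkn1a at −0.24 and the transcriptional repressor gene Bhlhe40 at −0.15, each with limma adjusted p = 1.00. Of 11 regulators of skin appendages 7 were above 0, with a median of 0.06. Dkk4, whose product inhibits Wnt signalling, lay highest at 0.92 (SE 0.17), with limma adjusted p = 0.545 and no overlap between the groups. The hedgehog ligand gene Shh lay at −0.16, likewise without overlap, and Bmp2, a Bmp ligand of placodes, at 0.16, each with limma adjusted p = 1.00.

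**Figure D5:**
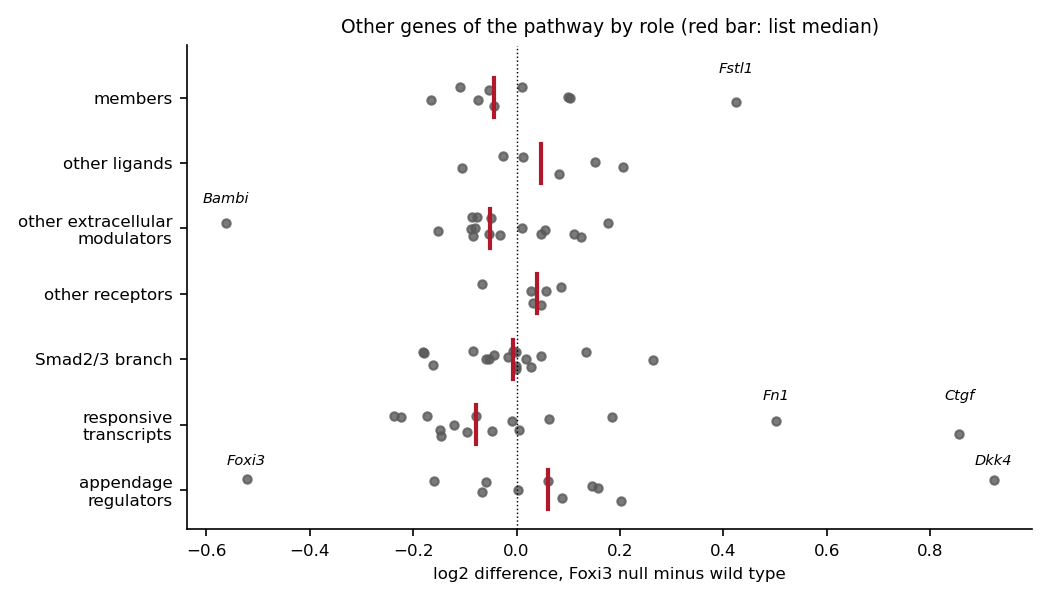
Log2 difference (Foxi3 null minus wild type, x axis) of each measured gene, 1 dot per gene, for the 9 members and 6 lists of other genes by role. The last list holds appendage regulators. Red bars mark list medians, dots are spread vertically for visibility, and genes beyond 0.4 on either side are named. Medians lie between −0.08 and 0.06, while Ctgf (0.86) and Dkk4 (0.92) lie far to the right.

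The 3 members that varied most over the 8 embryos, Fstl1, Acvr2b and Fstl3, were set beside the genes whose profiles ran closest to theirs, by the root mean square difference of the profiles after each was centred on its own mean. For Fstl1 (SD 0.37 over 8 embryos) these were Srpx at 0.09, Ly86 at 0.12 and Hist1h3b at 0.14 log2 units, among 867 genes that varied at least as much. Srpx was also highest in null 2 and lowest in wild type 4, with 6.31 and 5.05. For Acvr2b (SD 0.24) they were Mga, Casp8ap2 and Atf7ip, each at 0.08, among 2591 genes. For Fstl3 (SD 0.23) they were Bace2 at 0.03, Tmprss13 at 0.04 and Cebpb at 0.04, among 2697 genes. The closest profiles of Fstl3 shared its low number 3 and high number 4, with Cebpb at 7.72 and 8.27 in null 3 and null 4, against 7.91 and 8.48 in wild type 3 and wild type 4. None of these 9 neighbours passed over all rows (limma adjusted p = 1.00 for each), and likeness over 8 arrays of 1 tissue is a description of these embryos.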

How the data were processed

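Expression was measured in 8 arrays, 1 per embryo. The deposited values are log2 intensities made by the authors with RMA, per the submitters' processing notes. RMA subtracts background, brings arrays to a common scale and combines the probes of a gene, and it compresses differences of dim genes. The array type, MoEx-1_0-st-v1, is given per the file headers; for the RMA version, probe annotation and build, no source used here gives them. Group means deposited beside them matched the sample values to 7.5e-09. The gene table's 8 columns named by array rather than by sample were left out. No 2 samples had identical values, and their correlations across genes spanned 0.985 to 0.995.

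Groups and replicate numbers came from the sample titles. The genotypes were compared by limma 3.58.1 (lmFit, eBayes; R 4.3.3), two-sided, with Benjamini-Hochberg adjustment over all 26165 rows, a threshold of 0.05 and no covariate. Standard errors and 95% intervals come from the moderated fit. Single genes were also tested by exact permutation of the 70 arrangements. The steps were tested on simulated data.

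The members and lists were chosen with earlier results of these data known. Named beside the members and Foxi3 were up to 4 genes of each pathway list with the lowest unadjusted p, and the 3 closest profiles, among genes of at least the member's SD and without predicted gene models, of the 3 members of largest SD. Some markers were named too, as were genes of the Smad2 and Smad3 branch that were lowest or highest in number 4 of both genotypes. Chromosomes and promoter windows are RefSeq's for GRCm38.p6, matched by symbol. Alternatives were quantile normalisation, median centring, rows above the median mean, array weights, trend with robust moderation, a looser threshold of 0.1, a block for the replicate number, embryo sex by Y-linked genes as a covariate, and leaving out samples.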

Additional observations from a re-analysis of the deposited data

Results flagged for a closer look

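For each value, the gap between an extreme embryo and its neighbour was divided by the range of its group, and embryos whose share exceeds the 95% critical value of Dixon's test for 4 samples are given. Of 74 values tested 4 stood out, against about 3.7 (5%) by chance. Inhba was high in null 2, at 5.09 against 4.71 to 4.76 in the other null embryos (share 0.851). Gdf3 was low in wild type 3, at 3.60 against 3.88 to 3.94 in the other wild-type embryos (0.831). The mean of the dissociation stress markers was high in null 4, at 8.13 against 6.90 to 7.06 in the other null embryos (0.87), and in wild type 4, at 9.10 against 7.01 to 7.26 in the other wild-type embryos (0.884).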

How the results depend on the processing

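Over 143 alternative fits of the 9 members none passed the threshold (adjusted p of 0.494 or more), 132 kept their direction and 11 turned it. Inhba, Fst, Fstl1, Fstl3 and Acvr2a kept their direction throughout, although Acvr2a shrank to −0.024 without null 4 and −0.027 without wild type 1. Inhbb, at 0.01, turned with array weights (−0.056), the sex covariate (−0.019) and without both samples numbered 4 (−0.11), and ran from −0.080 to 0.076 without single samples. Inha turned with the sex covariate (0.0050) and without both samples numbered 4 (0.056), and ran from −0.14 to 0.086 without single samples. Without single samples Acvr1b ran from −0.11 to 0.010 and Acvr2b from −0.025 to 0.21. The cause of these turns was not tested. The count of members called stayed at 0, with 0 to 2 at an unadjusted p under 0.05, beside 2.70% to 8.94% of all rows.

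The count of all rows called by limma was 3, and 0 to 4 without single samples. It was 0 without both samples numbered 4, where 1688 rows had an unadjusted p under 0.05. With the replicate number as a block it was 0, where 2339 rows had an unadjusted p under 0.05, Fstl1 stayed at 0.42 (adjusted p = 0.522) and Fstl3 at −0.17 (95% interval −0.31 to −0.018, adjusted p = 0.494). These 2 were the members with an unadjusted p under 0.05 in that fit, beside 8.94% of all rows, and limma adjusted p was 0.0879 for Ctgf and 0.0517 for Dkk4. The deviations of same-numbered samples from their group means had correlations of 0.13, −0.04, 0.49 and 0.36 for numbers 1 to 4, and null 1, 3 and 4 but not null 2 were closest to the wild-type sample of their own number. No source ties numbers to litters and number 2 showed no shared deviation, so the numbers were not taken as pairs. The counts of 0 without single samples arose without wild type 1, 2 or 4, where 893, 780 and 815 rows had an unadjusted p under 0.05. No member had a second row, and the gene table's unmatched columns gave no alternative values. Arrays give no read depth, and no signal over background was available to say which dim values are measured.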
